A study of Mus musculus with 26 samples.

Results

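The vascular endothelial growth factor (VEGF) set measured here comprised 9 genes: the ligands *Vegfa*, *Vegfb*, *Vegfc* and *Pgf*, the receptor tyrosine kinases *Kdr*, *Flt1* and *Flt4*, and the coreceptors *Nrp1* and *Nrp2*. They were taken by name from 16426 genes in the single-cell count tables and from 17623 genes in each of the bulk tables, and all 9 were listed in each of these tables. The single-cell data came from mouse RPE/choroid, the retinal pigment epithelium with the vascular tissue beneath it, as 1 library of B6129PF1/J and 1 library of C57BL/6J mice at 3 months of age, each pooling tissue from 1 male and 1 female eye, with live nucleated cells taken by sorting. A bulk experiment measured RPE/choroid of mice 6 months old on a C57BL/6J background, either Ihh+/+ or with floxed *Ihh* deleted in endothelial cells (ECs) (Ihh iΔEC/iΔEC); both genotypes carried Cdh5-PAC-CreERT2, a recombinase driven by an EC promoter, and both received tamoxifen 12 weeks before. Another measured choroidal GLI1+ cells from Gli1 GFP/+ mice, labelled as SWR/J, that were pooled from several females, expanded and passaged in culture, deprived of serum and exposed for 24 h to DMSO or to 100 nM SAG, an agonist of the hedgehog pathway. Each bulk value was the authors' average over 3 libraries, and these averages are given here without a spread and without a test.

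VEGF ligands are secreted proteins that bind receptor tyrosine kinases on ECs, where they control growth, survival and permeability of vessels. VEGF-A acts mainly through VEGFR2 (the product of *Kdr*), VEGFR1 (*Flt1*) binds VEGF-A, VEGF-B and placental growth factor (*Pgf*) and limits the VEGF-A that reaches VEGFR2, and VEGF-C acts on VEGFR3 (*Flt4*) and, once processed, on VEGFR2. Neuropilins bind several VEGFs as coreceptors and are also receptors for class 3 semaphorins. In the outer eye, VEGF-A from the RPE is known to maintain the fenestrated choriocapillaris, the capillary bed under the RPE.

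In the mouse genome (GRCm38, GENCODE annotation) the ligand genes were *Vegfa* at chr17:46016993-46032369, *Vegfb* at chr19:6982473-6987651, *Vegfc* at chr8:54077606-54187096 and *Pgf* at chr12:85166635-85177790. The receptor kinase genes were *Kdr* at chr5:75932827-75978458, *Flt1* at chr5:147561604-147726011 and *Flt4* at chr11:49609263-49652739, and the neuropilin genes were *Nrp1* at chr8:128358604-128503363 and *Nrp2* at chr1:62703285-62818695. The annotation held 6 different coding sequences each for *Vegfa* and *Nrp2*, 2 each for *Vegfb*, *Vegfc*, *Pgf* and *Flt1*, and 1 each for *Kdr*, *Flt4* and *Nrp1*. Both kinds of table held 1 value per gene, so VEGF-A splice forms, and soluble against membrane-bound forms of the receptors, were not separated.

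The B6129PF1/J library held 3637 cells and 17168578 unique molecular identifiers (UMIs, each marking 1 captured RNA molecule), and the C57BL/6J library held 3928 cells and 15230413 UMIs, with medians of 3881 and 3174.5 UMIs per cell. The authors' annotation put the cells in 13 clusters: RPE (cluster 1), ECs (2 to 4), stromal cells (5 to 8), smooth muscle cells (9), melanocytes (10), hematopoietic cells (11) and Schwann cells (12 and 13). Summed markers of all 7 cell types were highest in the clusters so named in both libraries; RPE markers reached 17.04 and 23.6 UMIs per 10000 in other clusters, against 1371 and 1280.5 in the RPE. Cells that also held markers of another cell type (at least 3 UMIs over at least 2 genes) made up 26.2% and 17.3% of the libraries, 22 cell barcodes occurred in both libraries, and 35 and 33 cells held UMIs of both *Xist* and *Ddx3y*, which RNA of 1 mouse does not hold together. All single-cell levels below are UMIs of a gene summed over a cluster, per 10000 UMIs of all genes in it, with exact Poisson 95% intervals that cover counting error only. UMI levels of different genes also depend on how well each transcript is captured and are not scaled to length, so they were compared between cell types rather than between genes. With 1 library per strain there was no replicate and no test between cell types or strains; strain and library cannot be told apart. The clusters were built from expression in these same cells and the EC clusters were named after *Kdr*, so differences between clusters are given as a description.

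**Figure D1:**
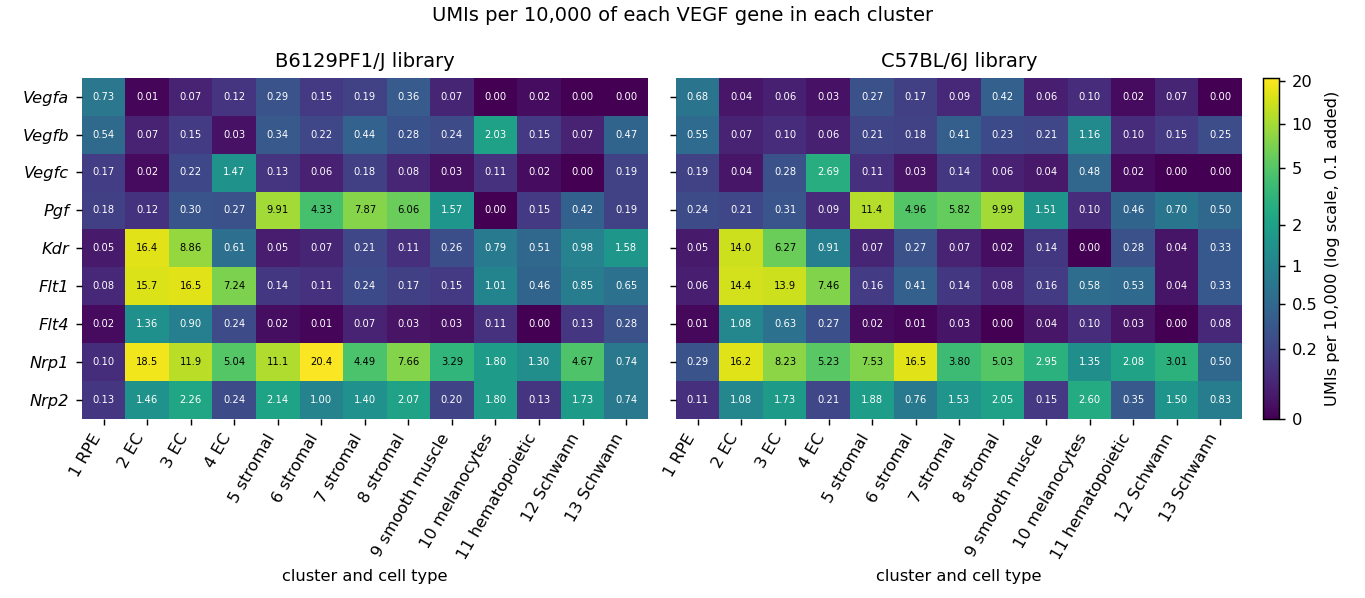
Level of the 9 VEGF genes (lines of the heat map) in each of the 13 clusters (columns), as UMIs per 10000 on a log colour scale with 0.1 added, for the B6129PF1/J and the C57BL/6J library. *Flt1* stands out in EC clusters 2 to 4, *Kdr* and *Flt4* in EC clusters 2 and 3, *Pgf* in stromal clusters 5 to 8, and *Nrp1* in both; *Vegfa* stays below 1 UMI per 10000 everywhere, with its top value of 0.73 in the RPE.

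*Vegfa*, the main angiogenic ligand, was highest in the RPE in both libraries, at 0.73 (95% interval 0.637 to 0.834) UMIs per 10000 in B6129PF1/J and 0.681 (95% interval 0.564 to 0.815) in C57BL/6J. Stromal cluster 8 came next at 0.364 (95% interval 0.231 to 0.546) and 0.419 (95% interval 0.256 to 0.647). At the depth sequenced the RPE stood apart from it in B6129PF1/J, while the intervals overlapped in C57BL/6J. In B6129PF1/J the median depths were 5263 UMIs in the RPE and 3741 in cluster 8. Levels of both at equal depth are not given, so the separation is not shown to hold there. Stromal cluster 5 held 0.293 and 0.274, and EC cluster 2 held 0.0105 and 0.0383. Few UMIs carried these values: 417 and 291 in the whole libraries, and at most 7 and 5 in a single RPE cell. *Vegfa* was detected in 33.7% of 407 RPE cells (median 5263 UMIs) of B6129PF1/J and in 22.99% of 374 (median 3406.5) of C57BL/6J, against 0.541% and 1.74% in EC cluster 2 (medians 4232.5 and 3460). In stromal cluster 5 a UMI was found in 83 of 848 and 67 of 839 cells (medians 3516.5 and 3037). When each cell was thinned to 1700 UMIs, the shares of RPE cells with a UMI were 9.58% and 11.5%, and other clusters are not given at this depth.

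Although the RPE had the highest level, it did not hold all *Vegfa* UMIs. Its share was 52.5% (95% interval 47.6 to 57.4%) in B6129PF1/J and 40.9% (95% interval 35.2 to 46.8%) in C57BL/6J, where RPE cells were 11.2% and 9.52% of all cells and held 17.5% and 11.5% of all UMIs. Stromal clusters together held 38.8% and 46.05%. With every cell thinned to 1700 UMIs, which gives every cell the same weight, the RPE share was 35.0% and 33.1%, and without cells that held markers of another type it was 41.2% and 33.5%; that filter removed 186 of 407 and 137 of 374 RPE cells, of which 179 and 130 held markers of the melanocyte list. The stromal *Vegfa* was not present at the ratio to RPE transcripts seen in the RPE: per 100 UMIs of *Rpe65*, the RPE retinoid isomerase, RPE cells held 1.26 and 1.14 UMIs of *Vegfa* and stromal cells held 75.7 and 62.04.

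*Vegfb*, a ligand of VEGFR1 and NRP1, was highest in the melanocytes, at 2.03 (95% interval 1.2 to 3.2) and 1.16 (95% interval 0.597 to 2.02), but these rested on 18 and 12 UMIs in 16 and 26 cells. The RPE followed with 0.537 (95% interval 0.457 to 0.626) and 0.555 (95% interval 0.45 to 0.677); the melanocyte interval lay above that of the RPE in B6129PF1/J and overlapped it in C57BL/6J. Stromal clusters 5 to 8 ranged from 0.215 to 0.436 and from 0.184 to 0.408, and EC clusters 2 to 4 from 0.0306 to 0.153 and from 0.0604 to 0.0965. In both libraries ECs thus had less *Vegfb* than the RPE, with intervals that did not meet. The RPE held 32.5% and 29.6% of *Vegfb* UMIs and stromal cells 41.9% and 38.7%.

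*Vegfc*, known for lymphatic growth, was the one VEGF ligand that was highest in ECs. In EC cluster 4, the one with the least *Kdr*, it reached 1.47 (95% interval 1.08 to 1.94) in B6129PF1/J (31 of 63 cells with a UMI) and 2.69 (95% interval 2.16 to 3.31) in C57BL/6J (41 of 72 cells), in each case apart from every other cluster. Cluster 3 held 0.22 and 0.278, and cluster 2 held 0.0157 and 0.0383, from 3 and 7 UMIs in 3 of 370 and 6 of 403 cells. The RPE had 0.167 and 0.189. ECs together held 44.1% (95% interval 37.6 to 50.7%) and 64.5% (95% interval 58.4 to 70.3%) of *Vegfc* UMIs. Of the genes that act with *Vegfc*, *Ccbe1*, which promotes its processing, had 23 and 26 UMIs, of which 22 and 24 were in the RPE; the protease gene *Adamts3* had 15 and 4, and *Figf*, which encodes VEGF-D, 64 and 43.

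*Pgf*, placental growth factor, was measured in many UMIs (5541 and 5423) and lay mostly in stromal cells. Cluster 5 was highest at 9.91 (95% interval 9.56 to 10.3) and 11.4 (95% interval 11.05 to 11.8). The other stromal clusters held 4.33, 7.87 and 6.06 (clusters 6, 7 and 8) in B6129PF1/J and 4.96, 5.82 and 9.99 in C57BL/6J. Cluster 5 stood apart from all of them in both libraries, but the order below it differed: cluster 7 was above cluster 8 in B6129PF1/J, and cluster 8 above cluster 7 in C57BL/6J. Smooth muscle cells followed at 1.57 and 1.51, and the RPE and EC clusters were between 0.121 and 0.303 in B6129PF1/J and between 0.0907 and 0.312 in C57BL/6J. Stromal cells held 91.7% (95% interval 90.96 to 92.4%) and 90.9% (95% interval 90.1 to 91.7%) of all *Pgf* UMIs, while being 47.7% and 44.8% of cells. Per 100 UMIs of the stromal transcript *Dcn*, smooth muscle cells held 174 and 126 UMIs of *Pgf* and the pooled stromal cells 13.4 and 15.8. The ratio was also above the stromal one in the RPE (72.6 and 37.8), ECs (25.9 and 21.8) and Schwann cells (75 and 58.1). Melanocytes were below it in both libraries and hematopoietic cells in B6129PF1/J. The ratio thus does not single out smooth muscle cells, and the source of *Pgf* outside stromal cells was not tested.

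*Pgf* is shown with its start regions because it was also the one member past 1.5-fold in the bulk data on the hedgehog pathway given below. RefSeq (GRCm38.p6) lists 2 starts for it, and each window runs from 250 bases before to 50 bases after a start. Capitals mark CCACCCA, the core of the sequence bound by GLI factors, or its reverse complement. Both windows are written 5′ to 3′.
Pgf, chr12:85175933-85176232, minus strand: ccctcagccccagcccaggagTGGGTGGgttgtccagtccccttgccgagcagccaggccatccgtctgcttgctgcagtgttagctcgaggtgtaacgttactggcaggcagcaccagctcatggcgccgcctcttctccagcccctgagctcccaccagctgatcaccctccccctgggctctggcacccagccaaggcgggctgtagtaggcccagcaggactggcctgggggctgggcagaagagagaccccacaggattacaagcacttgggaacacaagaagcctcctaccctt
Pgf, chr12:85177264-85177563, minus strand: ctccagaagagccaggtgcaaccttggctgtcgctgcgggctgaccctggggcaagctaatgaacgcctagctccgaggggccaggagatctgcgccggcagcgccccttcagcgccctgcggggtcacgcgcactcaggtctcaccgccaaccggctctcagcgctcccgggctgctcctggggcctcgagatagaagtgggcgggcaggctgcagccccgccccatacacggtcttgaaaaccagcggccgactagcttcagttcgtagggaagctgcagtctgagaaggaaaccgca
The longer GLI sequence GACCACCCA, which contains CCACCCA, was in none of the 11 windows of the 9 genes and in 0.253% of all 32851 promoter windows of this length. CCACCCA was in 1 of the 11, the *Pgf* window shown first, and in 9.3% of all windows. ACGTG, the core bound by hypoxia-inducible factors, was in 1 of the 11 (*Vegfa*) and in 19.6% of all. A match of letters is not a measured binding site.

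**Figure D2:**
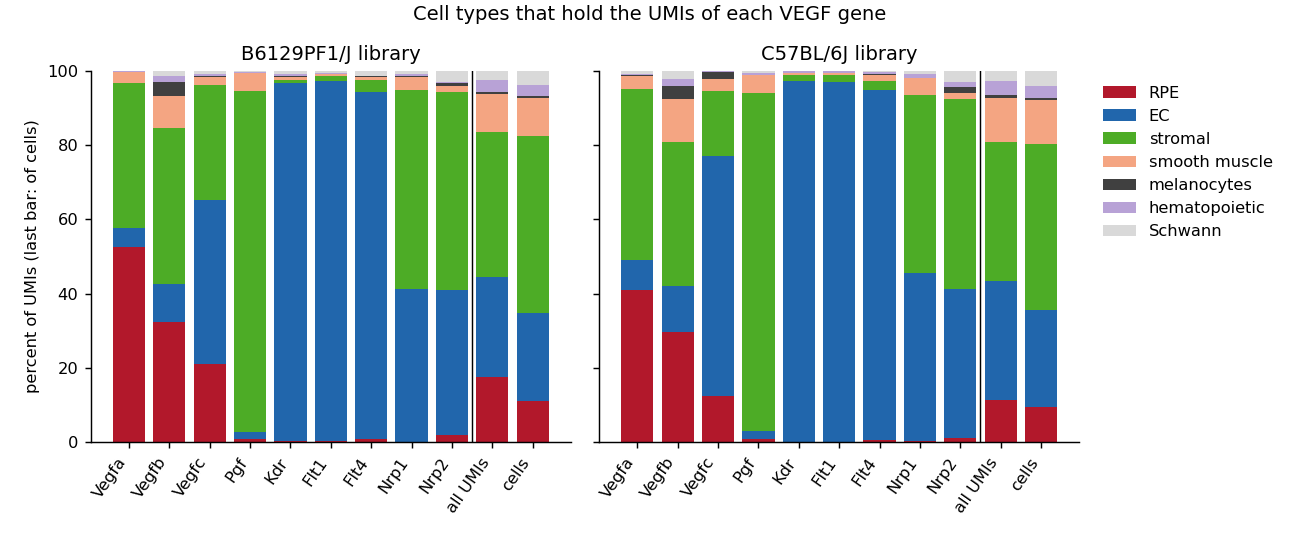
Share of each VEGF gene's UMIs held by each cell type (stacked bars from 0 to 100%), for both libraries, beside the share of all cells and of all UMIs. *Pgf* bars are over 90% stromal and the 3 receptor kinase bars over 93% EC, while *Vegfa*, *Vegfb*, *Nrp1* and *Nrp2* are divided among cell types.

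*Kdr*, which encodes VEGFR2, the main signalling receptor for VEGF-A, was graded over the EC clusters. It was 16.4 (95% interval 15.9 to 17.03), 8.86 (95% interval 8.49 to 9.24) and 0.611 (95% interval 0.373 to 0.944) in clusters 2, 3 and 4 of B6129PF1/J and 14.01 (95% interval 13.5 to 14.6), 6.27 (95% interval 5.97 to 6.57) and 0.907 (95% interval 0.612 to 1.29) in C57BL/6J. Cluster 2, cluster 3 and cluster 4 stood apart from each other in both libraries, but *Kdr* gave these clusters their names, so this gradient repeats the annotation. Cluster 4 did not stand apart from all clusters outside the endothelium in either library. In B6129PF1/J *Kdr* was 1.58 (95% interval 0.922 to 2.53) in Schwann cluster 13 (17 UMIs in 30 cells), 0.981 in Schwann cluster 12 and 0.788 in melanocytes. In C57BL/6J these were 0.334, 0.0367 and 0, from 4, 1 and 0 UMIs, and the interval of cluster 13 still overlapped that of cluster 4. ECs held 96.4% (95% interval 95.9 to 96.9%) and 97.01% (95% interval 96.5 to 97.5%) of *Kdr* UMIs. In stromal cells the ratio of *Kdr* to the EC transcript *Cldn5* (claudin-5) was near that in ECs: per 100 UMIs of *Cldn5* there were 50.02 and 34.9 UMIs of *Kdr* in ECs and 51.4 and 42.1 in stromal cells. In smooth muscle cells this ratio was 170.4 in B6129PF1/J, from 46 UMIs of *Kdr*, and 41.7 in C57BL/6J. In Schwann cells it was 88.7 in B6129PF1/J, from 47 UMIs of *Kdr* beside 53 of *Cldn5*, and 38.5 in C57BL/6J, from 5 UMIs of *Kdr*. In B6129PF1/J 3 cells of cluster 12 and 1 cell of cluster 13 held EC markers. The part of EC transcripts in the Schwann cell *Kdr* was not tested. *Kdr* was detected in 98.4% and 95.5% of cluster 2 cells against 3.19% and 2.14% of RPE cells, whose median depths are given above for *Vegfa*; with 1700 UMIs per cell these were 90.8%, 87.6%, 1.72% and 0.802%.

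*Flt1*, which encodes VEGFR1, followed a flatter course over the same clusters. In B6129PF1/J it was 15.7 (95% interval 15.2 to 16.3), 16.5 (95% interval 15.9 to 16.97) and 7.24 (95% interval 6.35 to 8.22) in clusters 2, 3 and 4, and in C57BL/6J 14.4 (95% interval 13.8 to 14.9), 13.9 (95% interval 13.4 to 14.3) and 7.46 (95% interval 6.56 to 8.46). Clusters 2 and 3 overlapped in both libraries and cluster 4 lay below them in both. ECs held 97.1% and 96.9% of *Flt1* UMIs.

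*Flt4*, which encodes VEGFR3, had few UMIs, 520 and 400 in the whole libraries. It was 1.36 (95% interval 1.2 to 1.54), 0.904 (95% interval 0.788 to 1.03) and 0.244 (95% interval 0.106 to 0.482) in clusters 2, 3 and 4 of B6129PF1/J and 1.08 (95% interval 0.938 to 1.246), 0.635 (95% interval 0.543 to 0.737) and 0.272 (95% interval 0.124 to 0.516) in C57BL/6J. Cluster 2 was apart from cluster 3 in both libraries, and cluster 3 from cluster 4. Among the 3 EC clusters *Flt4*, like *Kdr*, was thus highest in the one with the least *Vegfc*, and 93.3% and 94.5% of its UMIs were in ECs.

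The start regions of *Kdr* and *Flt1* are shown because these receptors share ECs as their site but differ in slope over the EC clusters. The RefSeq windows (GRCm38.p6, from 250 bases before to 50 after the start) are given 5′ to 3′ with capitals at CGGAAG or AGGAAG, cores bound by ETS factors, on either strand.
Kdr, chr5:75978406-75978705, minus strand: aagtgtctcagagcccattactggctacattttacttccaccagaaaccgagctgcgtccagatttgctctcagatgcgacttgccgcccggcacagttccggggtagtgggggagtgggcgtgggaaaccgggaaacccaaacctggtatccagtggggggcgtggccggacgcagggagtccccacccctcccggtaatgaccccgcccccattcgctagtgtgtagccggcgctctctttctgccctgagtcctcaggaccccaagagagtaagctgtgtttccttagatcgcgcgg
Flt1, chr5:147725962-147726261, minus strand: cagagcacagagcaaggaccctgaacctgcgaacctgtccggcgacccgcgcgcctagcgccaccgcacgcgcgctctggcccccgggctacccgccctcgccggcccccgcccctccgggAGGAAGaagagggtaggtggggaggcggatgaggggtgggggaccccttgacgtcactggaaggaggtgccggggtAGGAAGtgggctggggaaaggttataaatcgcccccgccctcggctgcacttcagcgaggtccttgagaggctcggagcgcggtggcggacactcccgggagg
CGGAAG was in none of the 11 member windows and in 16.9% of all windows. AGGAAG was in 2 of the 11, *Flt1* with 2 matches and *Nrp1* with 1, and in 35.4% of all windows. No match in the *Kdr* window says only that these letters do not occur within it.

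**Figure D3:**
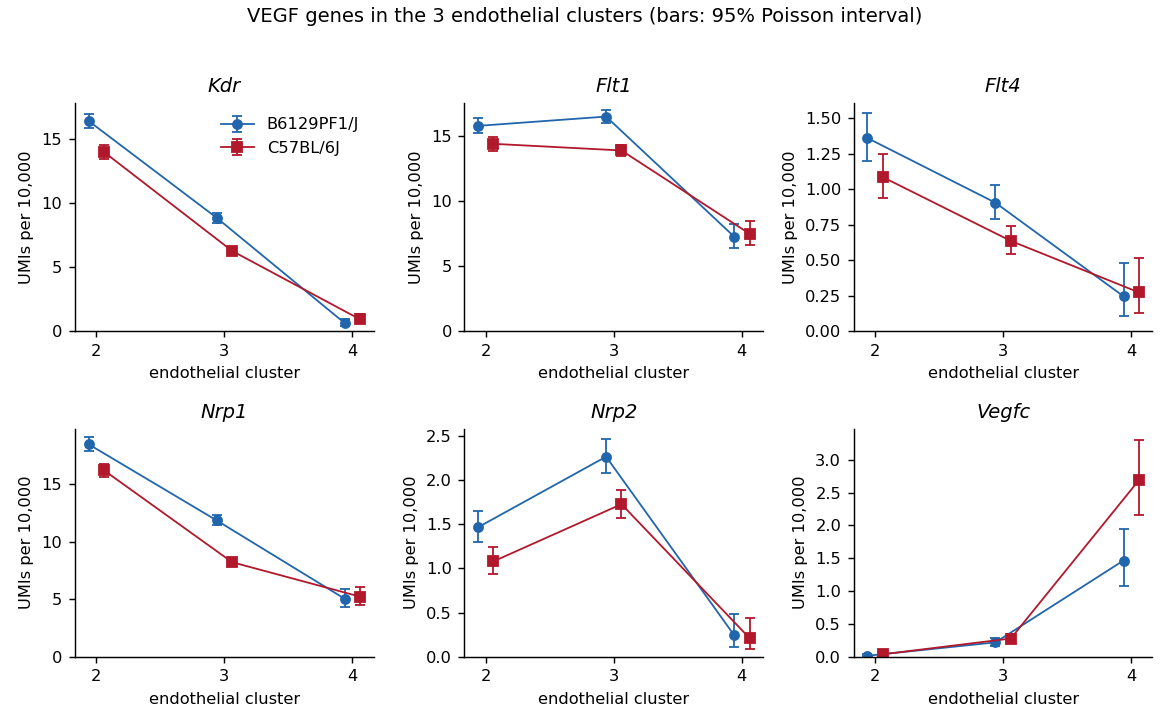
Levels of 6 VEGF genes in EC clusters 2, 3 and 4 (UMIs per 10000, linear axes from 0) with exact Poisson 95% intervals as bars, for both libraries. *Kdr* is lower at each step from cluster 2 to cluster 4, *Flt1* is level between clusters 2 and 3, and *Vegfc* runs the other way, from 0.0157 and 0.0383 in cluster 2 to 1.47 and 2.69 in cluster 4.

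To set the EC slopes beside those of other genes, all genes with at least 0.5 UMIs per 10000 in the higher cluster were compared between clusters 2 and 4, and a gene was counted where the clusters differed at least 2-fold. Of the 9 members 6 had this level. In B6129PF1/J 5 were higher in cluster 2, where 10.4% of all such genes were, and 1 was higher in cluster 4, where 10.4% were. In C57BL/6J 4 were higher in cluster 2 (background 10.8%) and 1 in cluster 4 (10.2%), with *Flt1* in neither. Both cluster 2 counts include *Kdr*, which gave the clusters their names, so its place there was set by the annotation. The others were *Flt4*, *Nrp1* and *Nrp2* in both libraries and *Flt1* in B6129PF1/J. *Flt4* and *Nrp2* reached 0.5 UMIs per 10000 only in cluster 2 of these clusters, and *Vegfc* only in cluster 4. They thus entered through the cluster where they were higher. All genes were taken by the same limit, and the counts are a description and not a test. *Kdr* in cluster 2 was 26.9 times (95% interval 17.4 to 44.1) its level in cluster 4 in B6129PF1/J and 15.5 times (95% interval 10.8 to 22.9) in C57BL/6J. With cells thinned to 1700 UMIs the B6129PF1/J value was 14.6. *Flt4* was 5.56 and 3.99 times higher, *Nrp2* 5.99 and 5.1 times, *Nrp1* 3.67 and 3.1 times, and *Flt1* 2.17 and 1.92 times; the B6129PF1/J value of *Flt1* was 1.74, under 2-fold, with thinned cells, and that of C57BL/6J 2.05, over it. *Vegfc* was lower in cluster 2 by 93.1 times (95% interval 30.02 to 467) and 70.2 times (95% interval 32.7 to 179.6), the first from 3 UMIs in cluster 2.

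Between clusters 2 and 3 the receptors parted. *Kdr* was 1.86 and 2.23 times higher in cluster 2, *Nrp1* 1.56 and 1.97 times, and *Flt4* 1.5 and 1.71 times. *Flt1* had a ratio of 0.957 (95% interval 0.912 to 1.0034) and 1.04 (95% interval 0.986 to 1.09), with 1 inside both intervals. *Nrp2* was higher in cluster 3, by 1.55 times (95% interval 1.34 to 1.79) and 1.6 times (95% interval 1.35 to 1.9).

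*Nrp1*, a coreceptor for VEGF-A and receptor for semaphorin 3A, was measured in many UMIs (15943 and 11840) and was found in cells with and without receptor kinases. Its highest levels were in stromal cluster 6, at 20.4 (95% interval 19.8 to 21.02) and 16.5 (95% interval 15.9 to 17.1), and in EC cluster 2, at 18.5 (95% interval 17.9 to 19.1) and 16.2 (95% interval 15.6 to 16.8); cluster 6 stood apart from cluster 2 in B6129PF1/J and overlapped it in C57BL/6J. EC cluster 3 (11.9 and 8.23) and stromal cluster 5 (11.1 and 7.53) came next. EC cluster 4 held 5.04 and 5.23, and smooth muscle cells 3.29 and 2.95. The RPE was lowest in both libraries, at 0.103 (95% interval 0.0702 to 0.147) and 0.292 (95% interval 0.217 to 0.384). Stromal cells held 53.6% and 47.99% of *Nrp1* UMIs and ECs 41.1% and 45.2%; in cluster 6 99.1% and 96.4% of cells had a UMI (medians 3595 and 2870), against 5.41% and 4.28% of the deeper RPE cells.

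Some cells of cluster 6 also held markers of other types. In B6129PF1/J 182 of its 541 cells did, 121 of them smooth muscle markers and 2 EC markers, and in C57BL/6J 137 of 603 did, 90 with smooth muscle markers and 12 with EC markers. Without such cells throughout, the stromal share of *Nrp1* was 58.8% and 51.7%.

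*Nrp2*, a coreceptor for VEGF-C and receptor for semaphorin 3F, was lower and more even. Several clusters overlapped at the top: EC cluster 3 at 2.26 (95% interval 2.08 to 2.46) and 1.73 (95% interval 1.57 to 1.89), stromal cluster 5 at 2.14 and 1.88, stromal cluster 8 at 2.07 and 2.05, and the few melanocytes at 1.8 and 2.6. Schwann cell cluster 12 was within the same range at 1.73 and 1.5. EC cluster 4 (0.244 and 0.212), smooth muscle cells (0.197 and 0.145) and the RPE (0.133 and 0.109) were low. Within ECs *Nrp2* therefore followed cluster 3, whereas *Nrp1* followed cluster 2.

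Cluster 3 had an intermediate *Kdr* level, and its cells were compared by their own *Kdr* UMIs after thinning each cell to 1700 UMIs. At that depth 9.19% and 12.4% of cluster 2 cells held no *Kdr* UMI, 50.7% and 60.5% of cluster 3 cells and 85.7% and 90.3% of cluster 4 cells. Within cluster 3, 218, 104 and 108 cells of B6129PF1/J and 332, 123 and 94 of C57BL/6J held 0, 1 and at least 2 *Kdr* UMIs.

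*Nrp1* in these cells was 6.88 (6.06 to 7.78), 8.2 (6.92 to 9.65) and 16.3 (14.5 to 18.2) UMIs per 10000 (95% intervals) in B6129PF1/J and 6.04 (5.42 to 6.72), 6.55 (5.5 to 7.75) and 12.4 (10.7 to 14.2) in C57BL/6J. *Flt1* was 12.1, 14.8 and 19.2 in B6129PF1/J and 9.96, 11.8 and 20.8 in C57BL/6J. Both were highest where *Kdr* had at least 2 UMIs, with intervals apart from those of cells without *Kdr*. *Nrp2* had no such order, at 2.54 (2.05 to 3.1), 2.77 (2.05 to 3.66) and 1.85 (1.28 to 2.59) in B6129PF1/J and 1.51 (1.2 to 1.86), 1.82 (1.29 to 2.49) and 1.69 (1.11 to 2.46) in C57BL/6J, all overlapping within a library. *Plvap*, which encodes the diaphragm protein of fenestrae, was 19.9 without *Kdr* and 38.9 with at least 2 UMIs in B6129PF1/J (21.1 and 40.6 in C57BL/6J). *Mgp*, matrix Gla protein, ran the other way, from 79.95 to 23.6 and from 49.9 to 17.8, and *Vwf*, von Willebrand factor, from 6.04 to 2.45 and from 3.81 to 1.94. *Vegfc* was 0.351 (0.187 to 0.6) without *Kdr* and 0.163 (0.0337 to 0.478) with at least 2 UMIs in B6129PF1/J, and 0.496 (0.33 to 0.717) and 0.188 (0.0387 to 0.549) in C57BL/6J, too few UMIs to separate the classes in either. In cluster 2 the same classes were closer together, with *Nrp1* at 16.95 (13.8 to 20.7) and 19.3 (18.01 to 20.6) in B6129PF1/J and 13.8 (11.4 to 16.5) and 17.1 (15.9 to 18.4) in C57BL/6J, with overlapping intervals in both.

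**Figure D4:**
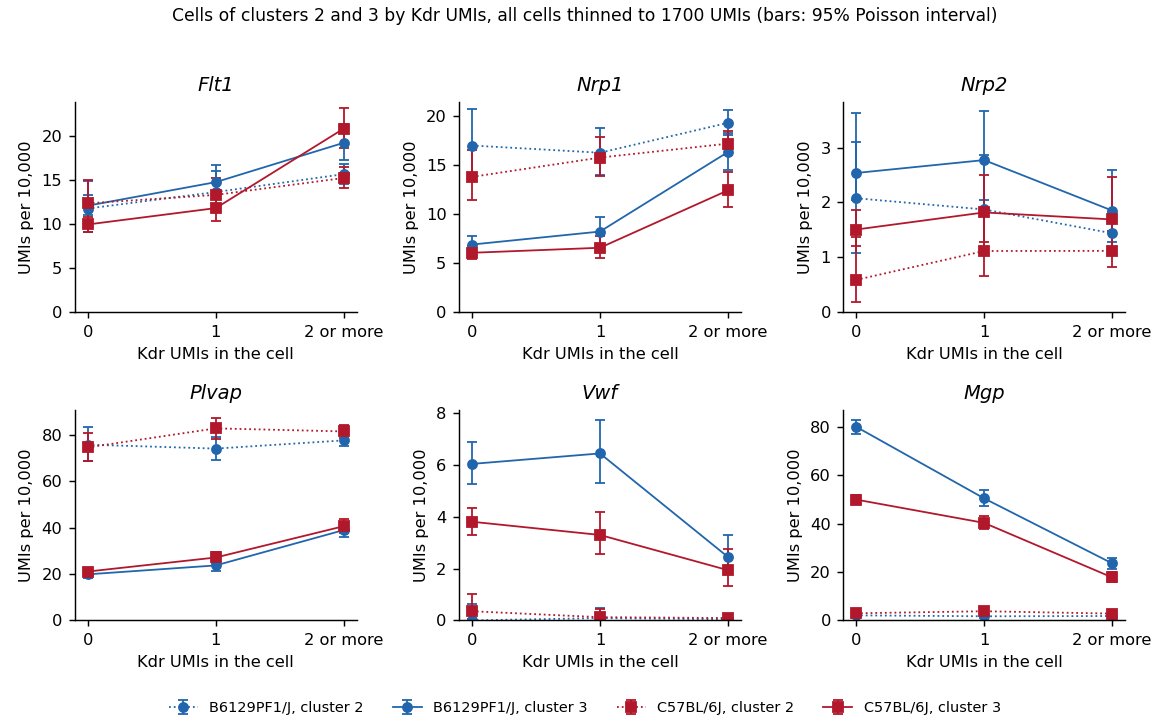
Levels (UMIs per 10000 after thinning to 1700 UMIs per cell, exact Poisson 95% intervals) of other VEGF genes and of EC genes in cells of cluster 2 (dotted lines) and cluster 3 (solid lines) with 0, 1 or at least 2 *Kdr* UMIs, for both libraries. In cluster 3 *Nrp1*, *Flt1* and *Plvap* are highest in the class with at least 2 *Kdr* UMIs, *Mgp* and *Vwf* are lowest there, and *Nrp2* intervals overlap.

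Receptors were also counted together in single cells thinned to 1700 UMIs. *Kdr* and *Flt1* were both detected in 82.7%, 44.4% and 12.7% of cells of clusters 2, 3 and 4 in B6129PF1/J and in 77.9%, 35.9% and 6.94% in C57BL/6J. *Flt1* without *Kdr* was found in 7.03%, 43.3% and 58.7% and in 10.2%, 46.3% and 58.3%. So cells with *Flt1* but no *Kdr* detected, whatever their *Flt4*, were the larger of these 2 classes in cluster 4. They were about as common as cells with both in cluster 3 of B6129PF1/J, more common than those in cluster 3 of C57BL/6J, and scarce in cluster 2. The shares expected from separate detection of the 2 transcripts were not computed, so these classes are not read as cell types. A cell counted as lacking a transcript may hold it below detection at this depth.

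Outside the endothelium *Nrp1* and *Pgf* were detected together in many stromal cells. *Nrp1* without any receptor kinase was found in 91.1% and 84.4% of cluster 6 cells and in 75.9% and 63.2% of cluster 5 cells. *Pgf* and *Nrp1* were both detected in 54.1% and 48.6% of cluster 5 cells and in 42.5% and 44.4% of cluster 6 cells. In cluster 5 any VEGF ligand was detected in 71.0% and 75.9% of cells. The shares expected from separate detection of *Pgf* and *Nrp1* were not computed, so their joint detection is not read as a link between them. In RPE cells, 97.3% and 97.6% had no UMI of *Kdr*, *Flt1* or *Flt4*.

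Other genes of the pathway were taken as lists and described in the same EC comparison; the list members were chosen by function. Of the neuropilin partners (class 3 semaphorins and plexins) 4 had at least 0.5 UMIs per 10000, and *Sema3g* was higher in cluster 4 by 6.59 and 6.94 times, while *Sema3f* was higher in cluster 2 by 2.83 and 3.41 times. *Plxnd1*, the receptor of semaphorin 3E, was 2.59 times higher in cluster 2 in B6129PF1/J and 1.21 times, below the 2-fold limit, in C57BL/6J. Of genes for signalling downstream of VEGFR2, 14 and 12 could be compared. *Yes1*, a Src family kinase, was higher in cluster 2 by 3.03 and 2.17 times, while *Ptprb*, the vascular endothelial phosphatase, *Iqgap1*, a scaffold, and *Nos3*, endothelial nitric oxide synthase, were higher in cluster 4, *Ptprb* by 4.31 and 3.69 times. The remaining 10 and 8 differed by less than 2-fold.

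Of the oxygen sensing genes, 2 could be compared and neither reached 2-fold; *Epas1*, which encodes HIF-2α, was 1.73 and 1.86 times higher in cluster 4. Of genes known to be induced by VEGF in ECs, 8 and 10 could be compared, with 3 and 4 at least 2-fold higher in cluster 2 (background 10.4% and 10.8%) and 0 and 1 in cluster 4 (background 10.4% and 10.2%). *Esm1*, endocan, was higher in cluster 2 by 61.2 times, with 3 UMIs in cluster 4, in B6129PF1/J and by 37.5 times in C57BL/6J, *Plvap* by 36.6 and 24.6 times and *Igfbp3* by 2.7 and 3.13 times. *Angpt2*, angiopoietin-2, had 147 UMIs in cluster 2 and none in cluster 4 in C57BL/6J, at least 8.88-fold higher against the limit of 3 counts in cluster 4. *Rcan1*, a calcineurin regulator, was higher in cluster 4 in C57BL/6J, by 2.34 times.

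In hematopoietic cells (cluster 11) *Nrp1* had the most UMIs of the members, 71 and 126, and no other member had more than 28 and 32. In cells with macrophage markers (51 and 73 cells) *Nrp1* was 1.89 (95% interval 1.4 to 2.5) and 3.02 (2.46 to 3.67) UMIs per 10000. In the cells of the cluster without macrophage or mast cell markers it was 0.733 (0.454 to 1.12) and 0.95 (0.615 to 1.4), apart from the macrophage value in both libraries. *Vegfa* had 0 and 1 UMIs in the cells with macrophage markers; 0 of the B6129PF1/J UMIs allows up to 0.143 per 10000 by the exact interval. In the same cells *Kdr* was 0.85 and 0.269, *Flt1* 0.618 and 0.508 and *Pgf* 0.116 and 0.598. In each library 3 cells of cluster 11 held EC markers, and their part in *Kdr* and *Flt1* was not tested. Mast cell markers defined only 1 and 3 cells.

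Between the libraries, 55 combinations of a member and a cluster had at least 50 UMIs, and 12 of them (21.8%) were at least 1.5-fold apart, where 11.3% of all gene and cluster combinations were. *Vegfc* in EC cluster 4 was 1.83 times higher in C57BL/6J, and *Pgf* was 1.77 times higher there in EC cluster 2 and 1.65 times in stromal cluster 8. *Nrp1* in the RPE, where it was lowest, was 2.82 times higher in C57BL/6J, and in hematopoietic cells 1.6 times. *Kdr* and *Flt1* in stromal cluster 6 were 3.73 and 3.64 times higher in C57BL/6J, where 12 cells of that cluster held EC markers against 2 in B6129PF1/J; the part of those cells in this difference was not tested. In the other direction *Vegfb* was 1.59 and 1.67 times higher in B6129PF1/J in clusters 3 and 5 (95% intervals 0.937 to 2.73, which includes 1, and 1.2 to 2.34), *Kdr* 1.86 times in cluster 9 and *Nrp1* 1.52 and 1.55 times in clusters 8 and 12. Other levels were less than 1.5-fold apart: *Vegfa* in the RPE had a ratio of 1.07 (95% interval 0.854 to 1.35, B6129PF1/J over C57BL/6J), *Kdr* in cluster 2 1.17 and *Pgf* in cluster 5 0.866. Each of these sets 1 library beside another and has no replicate check.

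The genes whose levels most resembled each member were found by Pearson correlation of log2(UMIs per 10000 + 0.1) over the 26 cluster and library profiles, among 9977 genes with at least 200 UMIs; these profiles share libraries and clusters, and the correlations are a description. For *Vegfa* they were *Nap1l5* (r = 0.89), *Sulf1* (r = 0.87) and *Nqo1* (r = 0.87), for *Vegfb* *Bhlhe41* (r = 0.87), *Gsta4* (r = 0.86) and *4931406C07Rik* (r = 0.86), and for *Vegfc* *Gkn3* (r = 0.85), *Bmx* (r = 0.84) and *Rfk* (r = 0.84). For *Pgf* they were *Igfbp5* (r = 0.97), *Edn3* (r = 0.96) and *Irx2* (r = 0.96). For the receptor kinases they were *Plvap* (r = 0.98), *Exoc3l2* (r = 0.97) and *Fam167b* (r = 0.97) for *Kdr*, *Egfl7* (r = 0.98), *Elk3* (r = 0.97) and *Cyyr1* (r = 0.97) for *Flt1* and *Tnfsf10* (r = 0.96), *Ramp3* (r = 0.96) and *Stap2* (r = 0.96) for *Flt4*. For *Nrp1* they were *Gng11* (r = 0.94), *Emcn* (r = 0.93) and *Zbtb16* (r = 0.91), and for *Nrp2*, which had the least similar neighbours, *Trp53i13* (r = 0.84), *Nid1* (r = 0.82) and *Prmt2* (r = 0.80). Among the members themselves *Kdr* and *Flt4* had r = 0.94, *Flt1* and *Flt4* 0.93, *Kdr* and *Flt1* 0.90, and the neuropilins 0.49. The names depended on the measure, since with ranks (Spearman) 6 of the 27 were named again, and with the B6129PF1/J or the C57BL/6J profiles alone 9 and 13.

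In RPE/choroid tissue the values are FPKM, fragments per kilobase of transcript scaled to the size of the library, which can be compared between genes per length. In Ihh+/+ tissue *Vegfa* was the highest member at 101 FPKM, followed by *Vegfb* at 65.3 and *Pgf* at 30.1. *Nrp1* (18.4), *Nrp2* (18.2), *Kdr* (15.3) and *Flt1* (10.53) came after, and *Vegfc* (5.84) and *Flt4* (3.7) were lowest. With no spread between libraries the order of close neighbours, such as *Nrp1* and *Nrp2*, cannot be ranked. The gene with the highest FPKM was thus among those with the fewest UMIs: per FPKM in Ihh+/+ tissue, *Vegfa* had 0.24 and 0.189 UMIs per 1000000 in the B6129PF1/J and C57BL/6J cells and *Nrp1* had 50.6 and 42.3, between samples that differ in assay and age.

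Deletion of *Ihh*, the hedgehog ligand gene, in ECs was compared first at the hedgehog readout. *Ihh* was 1.53 FPKM in Ihh+/+ and 0.454 in Ihh iΔEC/iΔEC tissue, and the target genes *Gli1* and *Ptch1* were 9.4 against 3.15 and 7.69 against 4.98. None of the 9 VEGF genes differed by 1.5-fold or more, where 4.43% of 11411 genes that reached 1 FPKM in either group did (log2 of FPKM + 0.1). The authors' own comparison columns for these genes were not used here, and the averages alone carry no test.

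*Vegfa* was the one member above its Ihh+/+ value, 101 against 122 FPKM (log2 ratio 0.27), and the 8 others were below it. *Nrp2* differed most, 18.2 against 13.3 FPKM (log2 ratio -0.45), then *Pgf*, 30.1 against 23.9 (-0.33), and *Kdr*, 15.3 against 12.3 (-0.31). The log2 ratios of *Nrp1*, *Flt1*, *Flt4*, *Vegfb* and *Vegfc* lay between -0.20 and -0.16. The median of the 9 was -0.19 and that of all genes -0.04.

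Cell type markers differed beside them. The summed FPKM of 4 RPE markers in Ihh iΔEC/iΔEC tissue was 1.21 times that in Ihh+/+, beside ratios of 1.21 for *Vegfa* and 0.888 for *Vegfb*. Single RPE markers ranged from 1.16 (*Rlbp1*) to 1.34 (*Rpe65*). The sum of 3 EC markers had a ratio of 0.865, beside 0.805 for *Kdr*, 0.876 for *Flt1*, 0.885 for *Flt4* and 0.896 for *Vegfc*. The sum of 4 stromal markers had a ratio of 0.662, beside 0.794 for *Pgf*, 0.73 for *Nrp2* and 0.867 for *Nrp1*. Single stromal markers ranged from 0.577 (*Col1a1*) to 0.832 (*Pdgfrb*). *Vegfb*, *Nrp1* and *Nrp2* were divided among cell types, so no marker sum stands for them. All 5 rod photoreceptor markers, from retina that dissection can leave behind, were at least 1.5-fold lower in the deleted group, with sums of 89.8 and 32.5 FPKM, and the melanocyte sum had a ratio of 0.632. In tissue, fewer cells of a type and less RNA per cell cannot be told apart, and the part of cell makeup in the VEGF ratios was not tested.

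**Figure D5:**
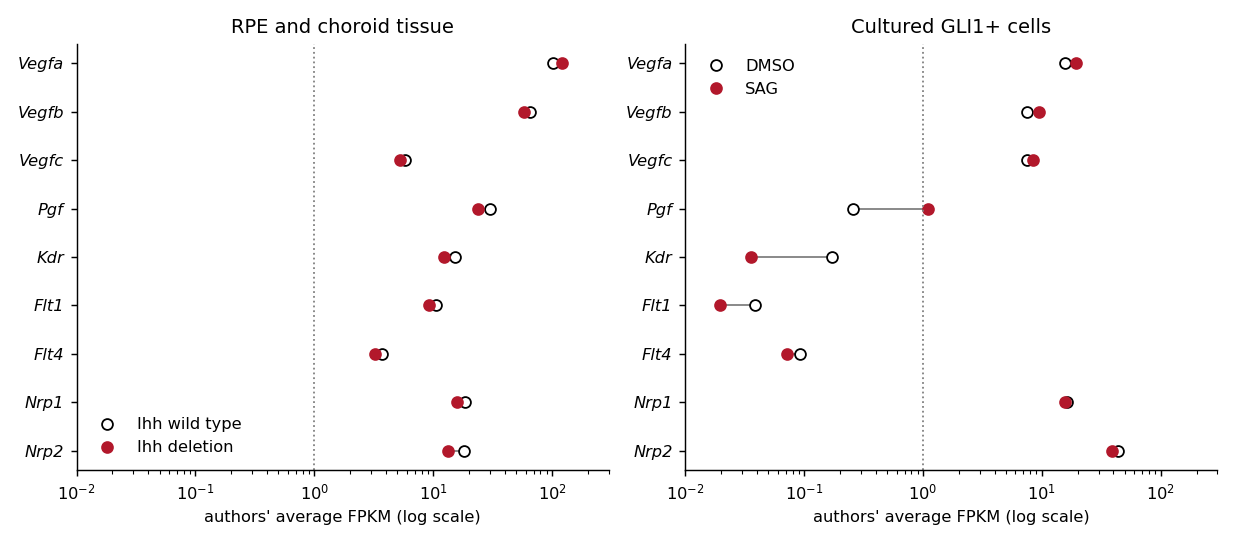
Authors' average FPKM (log axis) of the 9 VEGF genes in RPE/choroid, with *Ihh* intact (Ihh+/+) or deleted in ECs, and in cultured choroidal GLI1+ cells with DMSO or SAG; points are averages over 3 libraries and have no error bars, and the dotted line marks 1 FPKM. The tissue pairs lie close together for all 9 genes, while in culture the *Pgf* pair is apart (0.26 and 1.11 FPKM) and the receptor kinases lie below 1 FPKM.

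Of the pathway lists in this tissue, 0 of 9 neuropilin partners, 0 of 21 VEGFR2 signalling genes, 0 of 8 oxygen sensing genes and 0 of 2 further family genes reached 1.5-fold, with medians between -0.09 and 0.05. Of 9 VEGF-induced endothelial genes, 4 were higher and none lower, where 231 of 11411 genes were higher and 275 lower (4.43% in either direction). These were *Egr3* (0.518 against 2.43 FPKM) and *Nr4a2* (0.774 against 4.3), transcription factors of the immediate early response in many cell types, *Rcan1* (6.66 against 10.3) and the protease gene *Adamts1* (8.64 against 13.6). The median of the list was -0.13, and its other 5 genes were below their Ihh+/+ values by less than 1.5-fold.

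In cultured GLI1+ cells the averages of the hedgehog readout were higher with SAG, *Gli1* at 0.028 FPKM with DMSO and 3.65 with SAG and *Ptch1* at 1.13 and 10.1. Of the 9 VEGF genes 6 had at least 1 FPKM in either group, and 1 of them, *Pgf*, was at least 1.5-fold apart, where 3.67% of 10325 genes were. *Pgf* was 0.26 FPKM with DMSO and 1.11 with SAG (log2 ratio 1.74 with 0.1 FPKM added, 0.74 with 1 FPKM added), a low level at which the size of the ratio depends on the added constant. *Vegfa* was 15.6 and 19.5 (log2 ratio 0.32), *Vegfb* 7.49 and 9.52 (0.34), and *Vegfc* 7.55 and 8.48 (0.16). The averages of these 4 ligands were higher with SAG, 3 of them by less than 1.5-fold, where the median of all genes was 0.06; the VEGF-D gene *Figf* went the other way, at 30.3 and 20.7 FPKM (log2 ratio -0.55), also short of 1.5-fold.

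The coreceptors were close to their DMSO values, *Nrp1* at 16.4 and 15.7 FPKM (-0.07) and *Nrp2* at 43.6 and 38.7 (-0.17). The receptor kinases were under 1 FPKM in both groups: *Kdr* 0.171 and 0.036, *Flt1* 0.0383 and 0.0197, *Flt4* 0.0923 and 0.0717. The 3 EC markers summed to 0.229 and 0.412 FPKM in these cells, and no ratio was read for the kinases. Of the lists, *Apln*, the apelin gene, was the one member at least 1.5-fold apart (2.15 against 1.14 FPKM, lower with SAG), among 9 VEGF-induced genes, 11 neuropilin partners, 18 signalling genes and 7 oxygen sensing genes that had 1 FPKM or more.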

How the data were processed

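The members and the gene lists were chosen with earlier results of these data known. Single-cell values were counts: the authors deposited whole UMI counts per gene and cell, with cluster numbers from Seurat 2.1 per the submitters' processing notes, for cells sorted as Hoechst+ TO-PRO-3-. Bulk values were FPKM: the authors deposited group averages over 3 libraries each, for reads aligned with STAR 2.4.0f1 and quantified with Cufflinks 2.0.2 per the same notes. Columns of the authors' comparisons (log2 fold changes and adjusted p-values, averages per cluster) were not used, nor was the table of ECs isolated from other tissues (lung, liver, heart and neural retina), which lists none of the 9 genes. UMIs were summed per cluster and library (Python 3.11.15, numpy 2.4.6, pandas 2.3.3, scipy 1.17.1) and scaled to 10000, with exact Poisson and Clopper-Pearson 95% intervals for counting error, a floor of 3 counts, and no test, since each strain had 1 library and the bulk columns used were averages. No doublet caller was run; cells with both *Xist* and *Ddx3y*, and cells with markers of other types, were left out as alternatives. Cell type names follow the study's cluster numbers and were checked against fixed markers; the cells deposited differ in number from those the study states, in most clusters and, being fewer, in all. The genes named were the 9 members, the genes of the lists that passed the stated fold, and the 3 genes most correlated with each member. The steps were tested on simulated data. Promoter sequences were from RefSeq (GRCm38.p6) and gene positions from GENCODE (GRCm38).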

Additional observations from a re-analysis of the deposited data

How the results depend on the processing

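No paired analysis was possible because each strain had 1 single-cell library and the bulk tables held group averages, and leaving out replicates or fitting a replicate block was not run for the same reason. No direction reversed under the alternatives tried. The shares of UMIs moved beyond their counting intervals most often. With every cell thinned to 1700 UMIs the RPE held 35.0% (B6129PF1/J) and 33.1% (C57BL/6J) of *Vegfa* and 20.1% of *Vegfb* (B6129PF1/J), stromal cells 93.9% and 93.1% of *Pgf*, 63.4% and 57.1% of *Nrp1* and 60.1% and 60.5% of *Nrp2*, and ECs 96.1% of *Flt1* (C57BL/6J). Without cells holding markers of another type the RPE held 41.2% and 33.5% of *Vegfa* and 19.7% and 22.5% of *Vegfb*, stromal cells 94.3% and 94.4% of *Pgf*, 58.8% and 51.7% of *Nrp1* and 59.3% and 56.1% of *Nrp2*, and ECs 55.1% of *Vegfc* (B6129PF1/J), 98.7% and 98.4% of *Kdr* and 98.7% and 98.0% of *Flt1*. The RPE shares without mixed cells rest on a filter that took out 186 of 407 and 137 of 374 RPE cells, 179 and 130 of them with melanocyte markers. Whether these RPE cells were mixed was not tested. Without cells holding both *Xist* and *Ddx3y* in B6129PF1/J ECs held 97.3% of *Kdr* and 97.7% of *Flt1*. Of the 18 highest levels, 14 stayed within their intervals after thinning, 12 without the mixed cells and 17 as means over cells; *Vegfc* had no UMI in cluster 2 of B6129PF1/J after thinning, and 9 of 12 EC folds could be computed there.

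With a minimum of 0.2 UMIs per 10000, 2 members (*Vegfc* and *Pgf*) were at least 2-fold higher in cluster 4 in B6129PF1/J. The genes counted over the whole table in cluster 2 and cluster 4 were 384 and 386 (B6129PF1/J) and 408 and 385 (C57BL/6J), against 778, 724, 809 and 695 at a minimum of 0.2 and 233, 218, 227 and 209 at 1. Between the strains 18.9% of the combinations of all genes and clusters were 1.5-fold apart with at least 20 UMIs and 7.27% with at least 100, beside 11.3% with at least 50. The shares of the members at 20 and 100 UMIs are not given. With the limit lowered to 25% apart, 2 members differed in the *Ihh* deletion (*Nrp2* and *Pgf*, with 13.03% of all genes) and 2 with SAG (*Pgf* and *Vegfb*, with 11.1%); at a minimum of 0.1 FPKM 2 members differed with SAG (*Pgf* and *Kdr*, with 5.599% of all genes, and 7.58% in the *Ihh* deletion). At 2-fold 1.67% and 1.47% of all genes remained past the limit, and with 1 FPKM added 2.80% and 2.32%. Depth limited *Vegfa*, *Vegfb*, *Vegfc* and *Flt4* most, which had between 236 and 520 UMIs per library. The causes of these shifts were not tested.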

Other observations

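The following values were looked up after the levels above were known. Among 10775 genes measured by both methods, the ratio of UMIs per 1000000 in the single-cell libraries to FPKM in Ihh+/+ tissue had a median of 3.51 (B6129PF1/J) and 3.61 (C57BL/6J). *Vegfa* lay at 0.24 and 0.189, with 2.18% and 1.92% of genes lower, and *Vegfb* at 0.443 and 0.33. Genes whose UMIs were mostly in the RPE (472 and 296 genes) had medians of 1.22 and 0.862, and 1.69% and 2.03% of those were below *Vegfa*; *Rpe65* lay at 1.52 and 1.05. At the other end *Nrp1* (50.6 and 42.3) and *Flt1* (41.1 and 42.5) were above 99.2% or more of all genes, and *Pgf* lay at 10.7 and 11.8. The tissue differed from the cells in age, in dissociation and sorting, and in library chemistry, and the part of each in these ratios was not tested.

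Cultured GLI1+ cells and tissue were normalized in separate tables, so their levels are set side by side only. *Pgf*, at 30.1 FPKM in Ihh+/+ tissue and 9.91 UMIs per 10000 in stromal cluster 5 of B6129PF1/J, was 0.26 FPKM in the cultured cells with DMSO. *Figf* was 30.3 FPKM in culture and 1.1 in Ihh+/+ tissue. *Nrp2* was 43.6 FPKM in culture and *Nrp1* 16.4, beside 18.2 and 18.4 in Ihh+/+ tissue.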
